A study of Homo sapiens with 4 samples.

Results

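The urea cycle and the handling of glutamine were examined in HuH7 cells, a human hepatocellular carcinoma line, after knockdown of MKL1 and MKL2. The set was a list of 10 genes, namely CPS1, OTC, ASS1, ASL, ARG1, ARG2, NAGS, SLC25A15, GLUL and GLS2. A gene was taken as measured where a probe carried its symbol alone, and where several did, the one with the highest average over all 4 arrays stood for it. Of the 10 genes, 9 were measured among the 18417 genes tested, and GLS2, the liver-type glutaminase, was not analysed here. The knockdown cells stably expressed MKL1/2 shRNA (n = 2 arrays), and the control cells a control shRNA (n = 2 arrays). Both kinds had received the hairpin by lentivirus from the pLKO.1 vector, had been selected with puromycin for 7 days, were grown in 10% serum and were kept below passage 10. MKL1 and MKL2, now named MRTFA and MRTFB, are coactivators of serum response factor (SRF) that respond to the pool of monomeric actin, and the study asked which genes depend on them. The labels call the samples biological replicates without saying if the infections were separate. The p-values therefore set each difference against a spread between these arrays that may be technical. That spread is drawn in part from all genes.

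Ammonia set free by amino acid breakdown is toxic, and the hepatocytes around the portal vein turn it into urea. N-acetylglutamate, made by NAGS, activates CPS1, which makes carbamoyl phosphate in mitochondria, OTC joins this to ornithine to give citrulline, and ASS1, ASL and arginase complete the cycle in the cytosol. Hepatocytes around the central vein capture what ammonia is left by making glutamine with GLUL, while glutaminases release ammonia from glutamine. Expression of several of these enzymes is often low in liver cancer cells.

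The enzyme genes CPS1, ARG1 and ASS1 lay higher on both MKL1/2 shRNA arrays than on both control arrays, with mean log2 differences of 0.52 to 0.81. ASS1 was above the control mean by 0.67 in replicate 1 and 0.37 in replicate 2. OTC also lay higher, at the dimmest levels of the set. No background level is known for any gene, and the means of ARG1 and CPS1 were at the 29.1st and 40th percentiles of all genes. None of the 9 passed an adjusted p of 0.05 in limma's test over all genes. CPS1 and ARG1 came closest, both with an adjusted p of 0.0563. ASL, whose enzyme acts between those of ASS1 and ARG1, had a log2 difference of -0.04. GLUL differed by 0.11 on the log2 scale, and ARG2 went opposite ways on the 2 knockdown arrays.

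**Figure D1:**
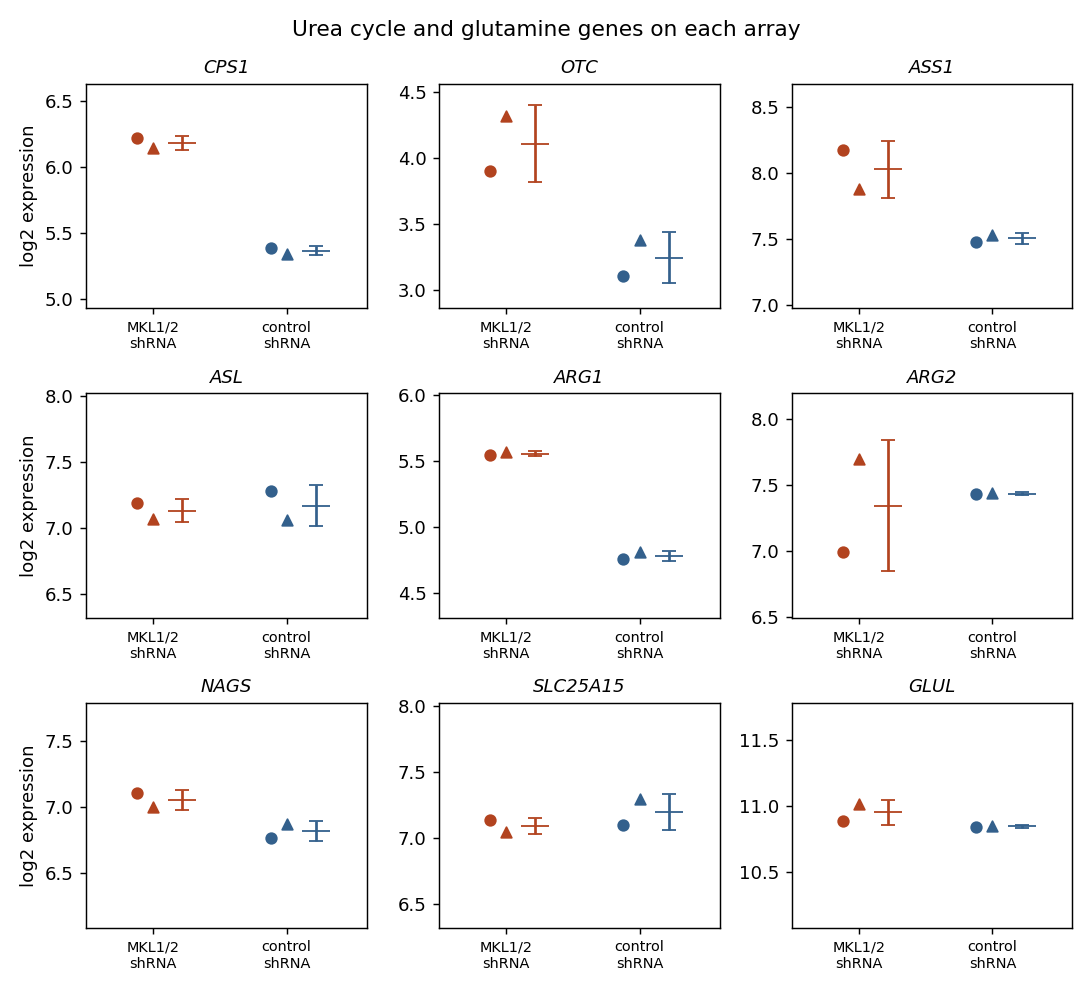
Log2 expression of the 9 measured genes on each array. Circles are replicate 1 and triangles replicate 2 of MKL1/2 shRNA cells (left in each panel) and of control shRNA cells (right), bars are the mean ± SD (n = 2), and every panel spans the same height on its axis. Both MKL1/2 shRNA points of CPS1, ARG1, OTC, ASS1, NAGS and GLUL lie above both control points, whereas the groups overlap for ASL, ARG2 and SLC25A15.

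The promoter sequences of the arginase pair are shown because these paralogs had unlike values, as described for each below, and that of OTC because its differences and those of ARG1 were among the highest of the set. ARG1 encodes the cytosolic arginase of the liver and ARG2 the mitochondrial form found in many other tissues. Each sequence is the 250 bases before a RefSeq start site in GRCh38.p14, on the plus strand. Capitals mark TATAAA and, in ARG2 alone of these 3, CCAAT (or ATTGG, its reverse complement) and the cyclic AMP response element TGACGTCA.
ARG1, chr6:131572976-131573225: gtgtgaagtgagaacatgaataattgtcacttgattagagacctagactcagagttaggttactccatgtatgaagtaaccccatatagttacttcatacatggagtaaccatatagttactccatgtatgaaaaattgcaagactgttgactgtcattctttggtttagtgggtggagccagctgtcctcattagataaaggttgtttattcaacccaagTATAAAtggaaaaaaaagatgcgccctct
ARG2, chr14:67619670-67619919: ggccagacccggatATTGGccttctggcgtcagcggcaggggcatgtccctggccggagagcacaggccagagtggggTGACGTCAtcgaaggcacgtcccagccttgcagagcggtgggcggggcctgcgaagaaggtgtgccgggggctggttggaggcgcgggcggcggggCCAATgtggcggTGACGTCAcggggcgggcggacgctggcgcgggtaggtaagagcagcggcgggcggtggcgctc
OTC, chrX:38352354-38352603: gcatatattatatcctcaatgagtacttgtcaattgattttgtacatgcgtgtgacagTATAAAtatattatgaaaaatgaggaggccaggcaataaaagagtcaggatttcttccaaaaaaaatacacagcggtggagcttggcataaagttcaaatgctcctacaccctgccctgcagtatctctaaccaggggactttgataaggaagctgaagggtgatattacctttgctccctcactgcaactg

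The 10 listed genes matched 14 such windows in the RefSeq table, of which 3 belong to CPS1, 2 to ASS1 and 2 to GLUL. Both strands were searched for 7 motifs, namely the CArG box bound by SRF, the TATA box letters TATAAA, the CCAAT box, the cyclic AMP response element TGACGTCA, the letters TTGCNNAA for C/EBP factors, CAAAGTCCA for HNF4 and GTTAAT for HNF1. The CArG box was found in 0 of the 14 windows, and in 1.16% of all 35116 windows in the table. The letters TATAAA were found in the windows of ARG1, where it begins 29 bases before the start, and of OTC, where it begins 192 bases before it. It is in 10.7% of all windows. The ARG2 window holds TGACGTCA at 2 positions, and 1.65% of all windows hold it. CCAAT was found in windows of ARG2, ASL, GLUL and CPS1 and in 32.0% of all windows. The C/EBP, HNF4 and HNF1 letters had no match in the 14 windows and are in 9.05%, 0.325% and 6.23% of all windows. These are matches of letters in short windows and say nothing of binding.

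Base composition divided the same windows into separate ranges. The share of G and C was 37.6% in the ARG1 window, 40.4% in that of OTC and 33.6% to 48.4% in the 3 of CPS1. It was between 65.6% for NAGS and 79.6% for SLC25A15 in the windows of the other genes, with 68.4% and 78.8% in the 2 of ASS1. The median over all windows was 58.0%, with quartiles of 46.4% and 68.0%. Of the 4 genes with the highest log2 differences, CPS1, ARG1 and OTC have windows below the median, and ASS1 has windows above the upper quartile. These 4 were picked by their values, and a relation of base composition to the differences was not tested.

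The probe that lists MKL1 read lower in the knockdown cells, while MKL2 did not pass the threshold. All 4 arrays had high levels of hepatocyte transcripts. The probe that lists MRTFA, together with a second gene, read 6.81 and 6.91 in MKL1/2 shRNA cells and 7.77 and 7.80 in control cells, and the groups differed by -0.93 on the log2 scale (SE 0.096), with a limma adjusted p of 0.0404. Without control replicate 1 or 2 the log2 difference was -0.94 and -0.91 and MRTFA no longer passed (adjusted p = 0.732 and 0.638). Without knockdown replicate 1 or 2 it was -0.88 and -0.98 and the call held (adjusted p = 0.0236 and 0.0145). MRTFB read 6.84 and 7.11 in MKL1/2 shRNA cells and 7.20 and 7.22 in control cells, and its log2 difference of -0.23 (SE 0.12) did not pass, with a limma adjusted p of 0.448. Of 15 hepatocyte markers, 13 were measured, and ALB, AFP and TTR averaged 12.37, 11.91 and 11.44 in MKL1/2 shRNA cells and 12.22, 12.22 and 11.44 in control cells. The marker with the highest log2 difference, TM4SF4, a membrane protein gene named after its value was seen, averaged 7.49 in MKL1/2 shRNA cells and 5.56 in control cells (log2 difference 1.92, limma adjusted p = 0.0688). The summed linear level of the 13 markers, which the brightest of them dominate, was 33690 and 32490 in MKL1/2 shRNA cells and 33640 and 33480 in control cells. None of the marker lists of stellate cells, cholangiocytes, endothelial or immune cells held a gene past the threshold, and their part in the results was not tested. The summed linear levels of the stellate, cholangiocyte, endothelial and immune lists, in this order, were 512.8 and 801, 2916 and 3048, 373.2 and 304.2, and 5853 and 4798 in MKL1/2 shRNA cells. In control cells they were 640.8 and 651.7, 2822 and 2842, 369.2 and 341.2, and 5008 and 5258. Among these lists 3 of 10 stellate, 1 of 7 cholangiocyte, 4 of 8 endothelial and 3 of 9 immune markers averaged below the lower quartile of the probes. The medians of the cholangiocyte and endothelial lists were 8.25 and 4.96 in MKL1/2 shRNA cells and 8.41 and 4.97 in control cells. The medians of the stellate and immune lists were 5.28 and 5.28 in MKL1/2 shRNA cells and 5.26 and 5.19 in control cells. Their brightest members, LUM and LYZ, averaged 7.86 and 12.14 in MKL1/2 shRNA cells and 8.03 and 12.10 in control cells, while their dimmest, DCN and PTPRC, averaged 2.87 and 3.09 in MKL1/2 shRNA cells and 2.70 and 2.79 in control cells. These 4 were picked for mention with their values known.

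The mitochondrial entry into the cycle is made by NAGS, CPS1 and OTC. CPS1, which fixes ammonia as carbamoyl phosphate, read 6.22 and 6.14 in MKL1/2 shRNA cells and 5.39 and 5.34 in control cells. Both knockdown arrays lay well above both controls, and the arrays within each group lay close together. The means were 6.18 ± 0.053 and 5.37 ± 0.032 (SD, n = 2 each). The log2 difference was 0.81 (SE 0.095, 95% interval 0.58 to 1.05), which is 1.76-fold with an interval from 1.50 to 2.06 (limma adjusted p = 0.0563). Its unadjusted limma p of 0.000125 was the 40th smallest of 18417. Its mean over the arrays was at the 40th percentile of all genes. With no background level known, its fold is that of the readings alone.

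OTC, which forms citrulline, was the dimmest of the set, at the 10.3rd percentile. It read 3.90 and 4.32 in MKL1/2 shRNA cells and 3.11 and 3.38 in control cells. The groups did not overlap, but both control values and that of knockdown replicate 1 lay below the lower quartile of the probes on their arrays. No background level is known, so at these levels no fold is given, and the log2 difference was 0.86 (SE 0.169, 95% interval 0.45 to 1.28, limma adjusted p = 0.132). The 2 knockdown arrays differed by 0.41 and the 2 control arrays by 0.27.

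NAGS, the source of the CPS1 activator, read 7.11 and 7.00 in MKL1/2 shRNA cells and 6.76 and 6.87 in control cells. The groups did not overlap, but the log2 difference of 0.24 did not pass (SE 0.102, 95% interval -0.01 to 0.49, limma adjusted p = 0.364). SLC25A15, the carrier that exchanges ornithine and citrulline across the inner mitochondrial membrane, read 7.13 and 7.04 in MKL1/2 shRNA cells and 7.10 and 7.29 in control cells. The groups overlapped, and its log2 difference was -0.11 (SE 0.11, 95% interval -0.38 to 0.16, limma adjusted p = 0.726). It was -0.20 without control replicate 1 and -0.01 without control replicate 2.

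The cytosolic enzymes of the cycle are ASS1, ASL and ARG1. ASS1, which condenses citrulline with aspartate, read 8.18 and 7.87 in MKL1/2 shRNA cells and 7.47 and 7.53 in control cells. Both knockdown arrays were above the controls, with replicate 1 the higher by 0.30. The log2 difference was 0.52 (SE 0.127, 95% interval 0.21 to 0.83), or 1.44-fold (limma adjusted p = 0.178). ASS1 has many processed pseudogenes in the human genome, and which of their transcripts its probe could share is not known from the sources used here. ASL, which splits argininosuccinate into arginine and fumarate, read 7.19 and 7.07 in MKL1/2 shRNA cells and 7.28 and 7.06 in control cells. Its groups overlapped, with a log2 difference of -0.04 (SE 0.116, 95% interval -0.32 to 0.25, limma adjusted p = 0.925).

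The 2 arginases had unlike values. ARG1, whose promoter is given above, read 5.55 and 5.57 in MKL1/2 shRNA cells and 4.76 and 4.81 in control cells. Both knockdown arrays were above both controls, and the spread within a group was at most 0.054. The log2 difference was 0.77 (SE 0.093, 95% interval 0.55 to 1.00), or 1.71-fold with an interval from 1.46 to 2.00 (limma adjusted p = 0.0563, unadjusted p 0.000149). Its mean over the arrays was at the 29.1st percentile of all genes, among the dimmest 40%. The fold of ARG1 is likewise that of the readings, with no background level known. ARG2 read 6.99 and 7.70 in MKL1/2 shRNA cells and 7.43 and 7.44 in control cells. One knockdown array was below and the other above the controls, by -0.44 in replicate 1 and 0.26 in replicate 2 against the control mean. The log2 difference of ARG2 was -0.09 (SE 0.221, 95% interval -0.63 to 0.45, limma adjusted p = 0.902). A test of the difference between the arginases was not made, and the intervals of ARG1 and ARG2 stand as given.

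GLUL, the glutamine synthetase, had 2 single-gene probes that list the same 14 accessions. The brighter probe read 10.89 and 11.02 in MKL1/2 shRNA cells and 10.84 and 10.85 in control cells. The other read 9.29 and 9.30 in MKL1/2 shRNA cells and 9.14 and 9.16 in control cells. On both probes the knockdown arrays lay above the controls. The log2 difference of the brighter probe was 0.11 (SE 0.099, 95% interval -0.14 to 0.35, limma adjusted p = 0.699), and that of the dimmer probe was 0.14. GLUL also has processed pseudogenes, and which probe lies in the gene itself is not given in the sources used here.

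**Figure D2:**
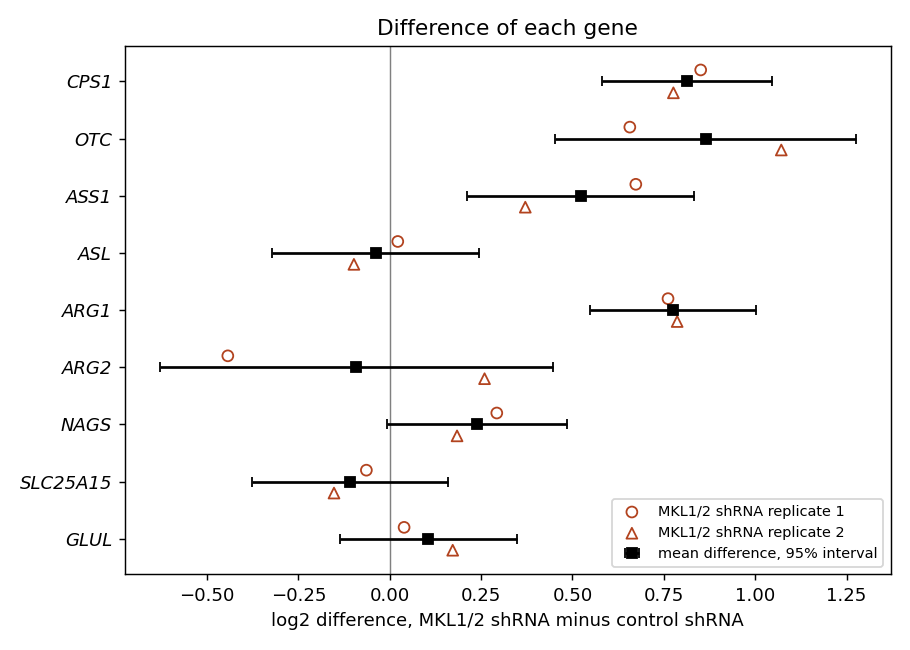
Log2 difference of each gene between MKL1/2 shRNA and control shRNA cells. Squares and bars are limma's estimate with its 95% interval, and open symbols show each MKL1/2 shRNA array minus the control mean. The intervals of CPS1, OTC, ASS1 and ARG1 lie above 0, those of the other genes include 0, and the 2 open symbols of ARG2 lie on opposite sides of 0.

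As a list, 0 of the 9 measured genes passed the adjusted threshold in limma, where 0.174% of all genes tested passed, 0.0814% as higher and 0.0923% as lower. At an unadjusted p under 0.05, 4 of 9 were higher and 0 lower, against 6.25% and 8.04% of all genes, or 14.3% in either direction. In 6 of 9 genes the MKL1/2 shRNA arrays both lay above both controls, against 22.5% of all genes. In 0 of 9 both lay below them, against 23% of all genes, and the groups did not overlap in either direction for 45.5% of all genes. The median log2 difference of the 9 was 0.24, with 0.29 in replicate 1 and 0.26 in replicate 2 against the control mean, and the median of all genes was 0.01. Without the dimmest 40% of genes, which takes out OTC and ARG1, the median of the 7 left was 0.11. These genes were listed with results of these data known, so the counts describe them and give no test of the set.

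The calls of CPS1 and ARG1 turned on small choices. CPS1 passed after quantile normalization (adjusted p = 0.0466), without the dimmest 40% of genes (adjusted p = 0.0372), with a trended robust prior (adjusted p = 0.0435) and with a replicate block (adjusted p = 0.0464). ARG1 passed with the trended robust prior (adjusted p = 0.0499) and was not among the genes left when the dimmest 40% were removed. It missed the threshold after quantile normalization (limma adjusted p = 0.0573) and with the replicate block (0.0543). CPS1 and ARG1 both missed it with each array centred on its median (0.05055 and 0.0533) and with a trended prior (0.0555 and 0.0592). Both also missed it with other probe choices and without moderation (0.418 for each). OTC passed with the replicate block (adjusted p = 0.044). The replicate numbers are not known to pair the samples. Leaving out 1 array moved the limma adjusted p far more. Without knockdown replicate 1 it was 0.0328 for CPS1, 0.0325 for ARG1, 0.0373 for OTC and 0.141 for ASS1. Without knockdown replicate 2 it was 0.021 for CPS1, 0.0262 for ARG1, 0.0678 for OTC and 0.033 for ASS1. Without control replicate 1 it was 0.896 for CPS1, 0.916 for ARG1, 1 for OTC and 1 for ASS1. Without control replicate 2 it was 0.672 for CPS1, 0.672 for ARG1, 0.726 for OTC and 0.746 for ASS1. Over the same sets of 3 arrays the log2 difference itself stayed between 0.78 and 0.85 for CPS1, and between 0.75 and 0.80 for ARG1. For OTC it lay between 0.66 and 1.07, and for ASS1 between 0.37 and 0.67.

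**Figure D3:**
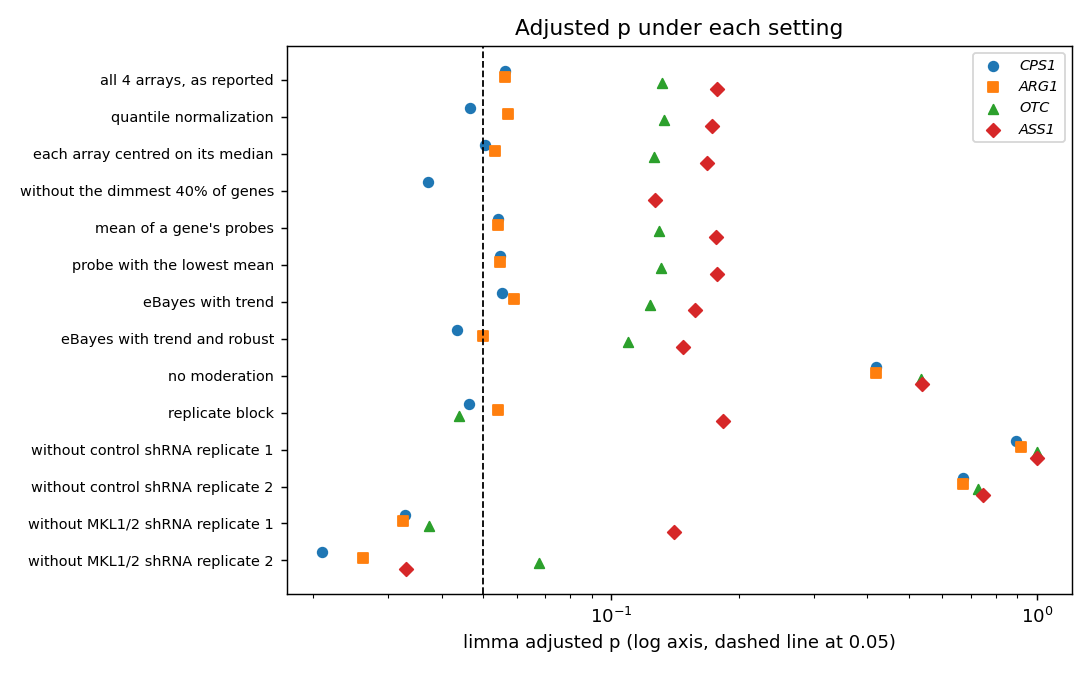
Limma adjusted p of CPS1, ARG1, OTC and ASS1 with all 4 arrays as reported and under each alternative setting, on a log axis with a dashed line at 0.05. With both control arrays and 1 knockdown array, CPS1 and ARG1 lie left of the line, and with 1 control array all 4 genes lie far right of it, between 0.672 and 1.

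Enzymes that pass nitrogen between glutamate, glutamine and other amino acids had differences of both signs. Of 20 listed, 15 were measured and 0 passed in limma, where 0.174% of all genes passed. Among the 15, 1 was higher and 2 were lower at an unadjusted limma p under 0.05, against 6.25% and 8.04% of all genes. The median log2 difference was 0.07. GOT1, the cytosolic aspartate aminotransferase, read 10.68 and 10.50 in MKL1/2 shRNA cells and 10.10 and 10.13 in control cells, and the groups differed by 0.48 on the log2 scale (SE 0.105), with a limma adjusted p of 0.15. ASNS, which makes asparagine with nitrogen from glutamine, had a log2 difference of -0.45 (SE 0.113), and CTPS1, which makes CTP with it, one of -0.36 (SE 0.122). CAD, which holds the cytosolic carbamoyl phosphate synthetase of pyrimidine synthesis, had a log2 difference of -0.02 (SE 0.097). Its levels were 7.44 and 7.52 in MKL1/2 shRNA cells and 7.53 and 7.47 in control cells, so the groups overlapped.

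Among transporters of glutamine, glutamate, arginine and ornithine, 20 of 29 had a negative log2 difference, against 48% of all genes tested, with a median of -0.03. All 29 listed were measured and 0 passed in limma, where 0.174% of all genes passed. Among the 29, 2 were higher and 6 lower at an unadjusted limma p under 0.05, against 6.25% and 8.04% of all genes. SLC7A1, the main cationic amino acid importer of many cells, read 7.34 and 7.56 in MKL1/2 shRNA cells and 7.99 and 7.98 in control cells, and the groups differed by -0.53 on the log2 scale (SE 0.11), with a limma adjusted p of 0.137. SLC7A2, the cationic amino acid transporter known from liver, read 8.64 and 8.52 in MKL1/2 shRNA cells and 9.01 and 8.86 in control cells, and the groups differed by -0.35 on the log2 scale (SE 0.107), with a limma adjusted p of 0.235. Both arginine importers had knockdown arrays below both controls, as had 10 of the 29 transporters and 23% of all genes. In 6 of the 29 transporters the knockdown arrays lay above both controls, against 22.5% of all genes. SLC7A11, the cystine and glutamate exchanger, differed by -0.93 on the log2 scale (SE 0.128), with a limma adjusted p of 0.0765. The glutamine importers SLC1A5 and SLC38A2 had log2 differences of -0.34 (SE 0.133) and -0.51 (SE 0.219), and SLC38A2 read 10.45 in knockdown replicate 1 and 11.14 in replicate 2. SLC7A8, a neutral amino acid exchanger, read 7.67 and 8.57 in MKL1/2 shRNA cells and 6.88 and 6.68 in control cells, and the groups differed by 1.34 on the log2 scale (SE 0.279), with a limma adjusted p of 0.14. The aspartate and glutamate carrier SLC25A13, which supplies ASS1 with aspartate, lay at -0.18 (SE 0.093), and SLC25A2, a second ornithine carrier, at -0.01 (SE 0.111).

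Of 26 enzymes of arginine, ornithine, proline and polyamine metabolism, 25 were measured and 0 passed in limma, where 0.174% of all genes passed. At an unadjusted p under 0.05, 1 was higher and 2 were lower, against 14.3% of all genes in either direction. GATM, which uses arginine for creatine synthesis and releases ornithine, read 9.80 and 10.35 in MKL1/2 shRNA cells and 9.20 and 9.21 in control cells, and the groups differed by 0.87 on the log2 scale (SE 0.181), with a limma adjusted p of 0.142. OAT, which converts ornithine towards glutamate and proline, read 8.77 and 8.97 in MKL1/2 shRNA cells and 9.36 and 9.30 in control cells, and the groups differed by -0.46 on the log2 scale (SE 0.109), with a limma adjusted p of 0.172. DDAH1, which breaks down methylarginines, lay at -0.32 (SE 0.097). AGMAT, a relative of the arginases, and NOS3, a nitric oxide synthase, lay at 0.05 (SE 0.097) and 0.02 (SE 0.092).

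Hepatic enzymes that break down amino acids or make glucose from them had a median log2 difference of 0.12, at 0.19 in knockdown replicate 1 and 0.06 in replicate 2. Of 36 listed, 31 were measured, and 22 had a positive log2 difference, against 52% of all genes. In limma 0 passed, where 0.174% of all genes passed. Among the 31, 3 were higher and 2 lower at an unadjusted limma p under 0.05, against 6.25% and 8.04% of all genes. The 3 with the smallest p were BCKDHB, a subunit of the branched-chain ketoacid dehydrogenase, AASS, which starts lysine breakdown, and TDO2, which starts that of tryptophan. Their log2 differences were -0.48 (SE 0.102), -0.61 (SE 0.143) and 0.55 (SE 0.136). TDO2 read 4.05 and 3.85 in MKL1/2 shRNA cells and 3.26 and 3.54 in control cells, at about the lower quartile of the probes or under it.

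GLUL is a target of beta-catenin around the central vein, and other genes known from that zone or pathway had differences of both signs. Of 16 listed, 15 were measured and 0 passed in limma, where 0.174% of all genes passed. Among the 15, 1 was higher and 2 were lower at an unadjusted limma p under 0.05, against 6.25% and 8.04% of all genes. The log2 difference was positive in 7 and negative in 8. RNF43 and AXIN2, feedback inhibitors of Wnt signalling, had log2 differences of -0.40 (SE 0.093) and -0.28 (SE 0.093), whereas DKK1, a secreted Wnt antagonist, lay at 1.00 (SE 0.352). DKK1 read 9.19 in knockdown replicate 1 and 10.38 in replicate 2, against 8.80 and 8.77 in control cells. Of 20 listed regulators of urea cycle genes, 16 were measured and 0 passed in limma, with 0 higher and 1 lower at an unadjusted p under 0.05. The pioneer factor gene FOXA1 read 9.43 and 9.50 in MKL1/2 shRNA cells and 9.72 and 9.74 in control cells, and the groups differed by -0.26 on the log2 scale (SE 0.094), with a limma adjusted p of 0.294. FOXA3 and CEBPA, further liver transcription factors, lay at -0.18 (SE 0.117) and -0.12 (SE 0.097), and 12 of the 16 regulators had a negative log2 difference, against 48% of all genes.

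**Figure D4:**
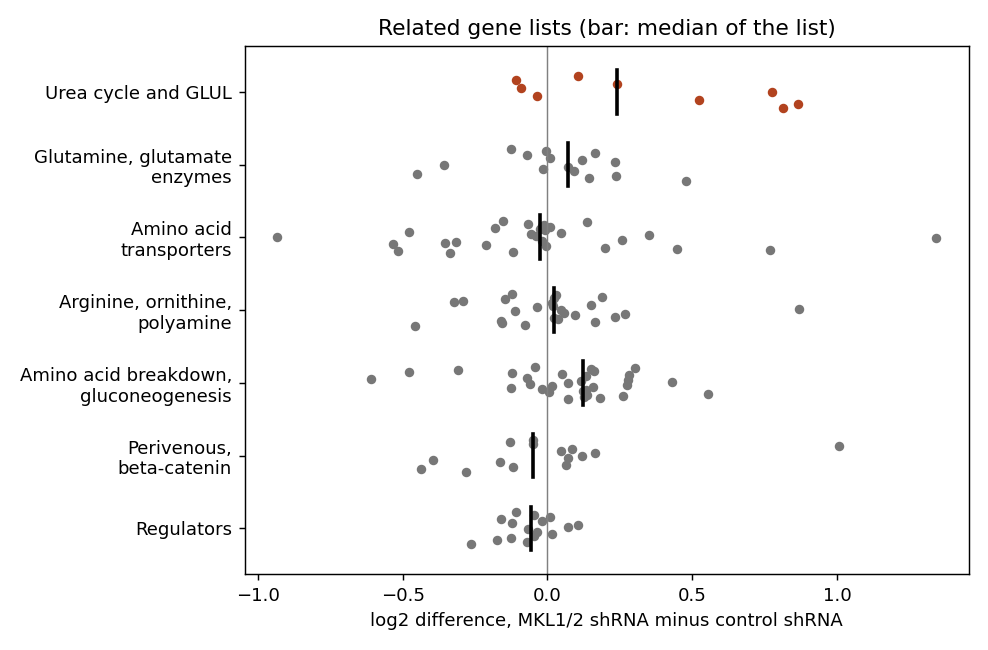
Log2 differences between MKL1/2 shRNA and control shRNA cells for the measured members of 7 gene lists, with 1 point per gene and a bar at the list's median. The urea cycle genes and GLUL (top row) have a median of 0.24, or 0.11 once the dimmest 40% of genes are removed. The medians of the other lists, to which that filter was not applied, run from -0.06 for the regulators to 0.12 for amino acid breakdown.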

How the data were processed

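The authors deposited log2 expression values from 1-colour whole-transcript arrays of total RNA labelled with biotin, with 33297 probes in 4 columns, 1 per sample. Partek is named per the submitters' processing notes, while how probes were background-corrected, normalized or summarized is not stated in the sources. That the scale is log2 was read from the range of the values. Array medians were 5.68 to 5.73, and the number of arrays limits the precision. Of the probes, 19460 list 1 gene symbol, and symbols were updated through Entrez identifiers with RefSeq (GRCh38.p14). Differences are MKL1/2 shRNA minus control shRNA, tested with limma 3.58.1 in R 4.3.3 with group as the sole factor (functions lmFit and eBayes, two-sided p, Benjamini-Hochberg over 18417 genes, threshold 0.05), with moderated standard errors. There were 2 residual and 4.12 prior degrees of freedom. No gene was filtered out. The procedure was run on simulated data in which each gene had the same spread in both groups. Here the SD over genes of the difference between arrays was 0.265 for knockdown and 0.154 for control. That run therefore does not cover the unequal spread of these arrays. No 2 arrays were duplicates, with at most 66 of 19460 single-gene probes identical in any pair. All measured members are named, and of each related list the 3 genes with the smallest p and close relatives of members. Members and lists were chosen with earlier results of these data known. Alternatives changed the normalization, the filter on dim genes, the probe choice, the variance moderation, the threshold, the samples and the replicate block. Sequences are from RefSeq (GRCh38.p14).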

Additional observations from a re-analysis of the deposited data

How the results depend on the processing

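With all 4 arrays 32 genes passed in limma, and 51 did after quantile normalization, 68 with a trended robust prior, 93 with a replicate block and 144 at an adjusted p of 0.1. Without moderation 0 passed in limma (1840 at an unadjusted p under 0.05, over the 18413 genes with a spread). Leaving out 1 array gave between 0 and 781 genes. Of the 9 urea cycle and glutamine genes 0 passed, and 1 did after quantile normalization, 1 of 7 without the dimmest 40% of genes, 2 with the trended robust prior, 2 with the replicate block, 2 at an adjusted p of 0.1, and between 0 and 3 without 1 array. Their median log2 difference of 0.24 became 0.11 without the dimmest 40%, where OTC and ARG1 are left out, and lay between 0.19 and 0.29 without 1 array. Without 1 array ASL lay between -0.15 and 0.072, with 0.072 without control replicate 1 and 0.022 without knockdown replicate 2. ARG2 lay between -0.44 and 0.26, with 0.26 without knockdown replicate 1. The signs of the other 7 genes held under every alternative run. The replicate numbers do not show that samples were paired, since the deviations of same-numbered arrays correlated at -0.07 over genes. With 3 arrays the lone array of a group is assumed to vary like the pair in the other. Without scanner files no signal over background is known, which limits OTC most.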

Other observations

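ARG2 differed between the 2 knockdown arrays by 0.70 on the log2 scale, at the 98th percentile of such differences over all genes, while its 2 control arrays differed by 0.01, at the 7.7th percentile. For ARG1 both differences were small, 0.03 between the knockdown arrays, at the 9.81st percentile, and 0.05 between the controls, at the 31.1st. ASS1 and OTC also spread between the knockdown arrays, at the 81.6th and 90.9th percentiles, and in opposite senses, with ASS1 higher in replicate 1 and OTC higher in replicate 2. The control arrays of ASS1 differed by 0.06, at the 32.9th percentile. Those of OTC differed by 0.27, at the 92.6th percentile, so its spread was not particular to the knockdown arrays. GLUL differed by 0.13 between knockdown arrays and by 0.01 between controls. No cause of these array differences was tested.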
